A study of Mus musculus with 3 samples.

Results

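The nuclear-encoded respiratory chain genes were read across the cell types of the mouse soft palate at embryonic stage E14.5. They were chosen by symbol: the Ndufa, Ndufb, Ndufc, Ndufs and Ndufv genes of complex I, the Sdh genes of complex II, the Uqcr genes of complex III, the Cox4 to Cox8 genes of complex IV and the Atp5 genes of complex V. Of 83 symbols that matched among 32285 genes, 81 had at least 50 unique molecular identifiers (UMIs) over the 3 libraries and are described here, with Ndufa4 counted in complex IV. Cox7b2, with 31 UMIs, and Cox8c, with 0, were below that minimum. The 81 genes are 35 of complex I, 4 of complex II, 8 of complex III, 17 of complex IV and 17 of complex V. They are set beside the 13 protein genes of the mitochondrial genome, whose products join the same complexes.

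Complexes I to IV of the inner mitochondrial membrane pass electrons to oxygen, with protons pumped at complexes I, III and IV, and complex V, the ATP synthase, uses the proton gradient to make ATP. Most subunits are encoded in the nucleus and imported, while the mitochondrial genome encodes core subunits of every complex but complex II. Some subunits of complex IV exist as isoforms with their own tissue pattern, such as the heart and skeletal muscle forms Cox6a2, Cox7a1 and Cox8b, the lung and smooth muscle form Cox4i2, and Cox6b2, known from testis.

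Dissociated cells of the posterior palate were profiled by droplet 3′ single-cell RNA sequencing in 2 control libraries and 1 library labelled Osr2-Cre;Alk5fl/fl, called mutant here (Alk5 is Tgfbr1, a TGF-β type I receptor gene). All samples are E14.5 and of strain C57BL/6 per the labels, and the controls are littermates with floxed Tgfbr1 alleles per the study's methods, so floxed alleles are present in both groups. Osr2-Cre acts in palatal mesenchyme. The number of embryos per library is not given in the labels, and p-values measure only the spread between these libraries, which may be technical.

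The files held 2816, 4067 and 8690 cell barcodes with 22624711, 27814907 and 63505144 UMIs in control 1, control 2 and the mutant, and the respiratory chain genes took 2.64%, 2.38% and 2.55% of them. A minimum of 500 genes per cell and a maximum of 10% mitochondrial UMIs left 2117, 3821 and 8111 cells, and 1812, 2880 and 5848 of these were assigned to a type by marker genes, none of which is a respiratory chain gene. Pairs of libraries shared 18 to 49 barcodes. Hemoglobin genes, a sign of free RNA in droplets, stood at 3890 counts per 1000000 UMIs (CPM) in the other mesenchyme of control 1 against 955 in control 2 and 718 in the mutant. Tgfbr1 was at 51.6, 57.2 and 45.9 CPM there, which does not check the deletion, since 3′ tags read the end of the transcript. Osr2, the Cre locus and a marker of the mesenchymal gate, was at 274 and 358 CPM in the controls and 130 CPM in the mutant.

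The promoters of 4 members are shown because they contrast a muscle isoform (Cox8b) with its widely expressed partner (Cox8a), and with a complex IV and a complex III gene of wide expression (Cox6a1, the partner of the muscle form Cox6a2, and Uqcrc1). Each runs 5′ to 3′ from 250 bases before to 50 bases after the RefSeq transcript start in GRCm38.p6, which has the coordinates of mm10, the build named in the submitters' notes. Capitals mark exact matches on either strand to the searched words. These were GCGCATGCG for NRF1, CCGGAAG for the ETS family, GGGCGG for the GC box, TATAAA for the TATA box and CAGCTG for the E-box.
Cox8b, chr7:140900397-140900696, minus strand: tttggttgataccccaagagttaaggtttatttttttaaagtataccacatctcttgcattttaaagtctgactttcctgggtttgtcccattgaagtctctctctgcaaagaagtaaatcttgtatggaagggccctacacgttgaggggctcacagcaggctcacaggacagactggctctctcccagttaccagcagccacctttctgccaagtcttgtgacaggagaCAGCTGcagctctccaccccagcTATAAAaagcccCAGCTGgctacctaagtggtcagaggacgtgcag
Cox8a, chr19:7217567-7217866, minus strand: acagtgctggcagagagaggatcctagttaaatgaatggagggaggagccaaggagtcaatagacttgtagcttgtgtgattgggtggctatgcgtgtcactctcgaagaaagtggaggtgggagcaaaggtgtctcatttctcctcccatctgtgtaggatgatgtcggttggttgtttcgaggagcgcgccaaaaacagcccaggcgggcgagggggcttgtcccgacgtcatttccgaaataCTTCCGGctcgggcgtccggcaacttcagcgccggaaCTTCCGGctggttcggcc
Cox6a1, chr5:115348909-115349208, minus strand: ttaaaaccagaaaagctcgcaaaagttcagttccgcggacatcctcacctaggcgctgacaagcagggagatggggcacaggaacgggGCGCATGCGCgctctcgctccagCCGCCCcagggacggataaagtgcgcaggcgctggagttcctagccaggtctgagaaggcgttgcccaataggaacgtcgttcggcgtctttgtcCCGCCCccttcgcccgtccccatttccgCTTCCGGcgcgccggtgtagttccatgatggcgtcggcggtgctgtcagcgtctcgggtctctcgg
Uqcrc1, chr9:108936398-108936697, plus strand: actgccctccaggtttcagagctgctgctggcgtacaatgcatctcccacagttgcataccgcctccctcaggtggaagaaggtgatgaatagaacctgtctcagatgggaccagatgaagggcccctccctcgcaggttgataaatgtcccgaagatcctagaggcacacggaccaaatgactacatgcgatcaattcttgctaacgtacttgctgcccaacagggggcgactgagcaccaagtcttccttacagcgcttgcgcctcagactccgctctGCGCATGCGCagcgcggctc
The Cox8b window held a TATA box word and 2 E-box words and no GC box, ETS or NRF1 word, whereas Cox8a held 2 ETS words, Cox6a1 held NRF1, ETS and GC box words, and Uqcrc1 held an NRF1 word. RefSeq promoters were matched for 67 members, with 72 windows in all. Among these 72 windows, 11.1% held the NRF1 word against 1.75% of all 32851 windows, 23.6% against 8.86% the ETS word, and 9.72% against 1.40% the YY1 word AAGATGGCG. The ERR word TCAAGGTCA was in 2.78% against 0.423%, the GC box in 38.9% against 35.7%, the TATA box in 11.1% against 13.6%, the E-box in 8.33% against 16.3% and the MEF2 word CTANNNNTA in 15.3% against 21%. Words were counted wherever they lay, also where they overlapped or adjoined, and a match is a description of letters only. Members with no entry included Ndufa2, Ndufb9, Ndufs1, Sdhc, Uqcrb, Uqcrc2, Uqcrq, Cox4i1, Cox4i2, Cox6a2, Cox6c, Atp5a1 and Atp5mpl.

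Among the types with at least 20 cells in every library, myocytes held the most respiratory chain RNA as a share of UMIs. The 81 genes summed to 32845, 33554 and 34501 CPM in myocytes (control 1, control 2, mutant). The values were 25612, 23062 and 24612 CPM in the other mesenchyme, the mesenchymal cells outside the perimysial, dividing and osteoblast gates. The ratio was 1.28, 1.45 and 1.40 in the 3 libraries, and the groups did not overlap. The epithelium summed to 30278, 28869 and 32837 CPM, the endothelium to 31871, 29498 and 29186 CPM and the macrophages to 27471, 26674 and 27146 CPM, each above the highest value of the other mesenchyme. Between these 3 types, the endothelium and the epithelium overlapped, and the macrophages lay below both.

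**Figure D1:**
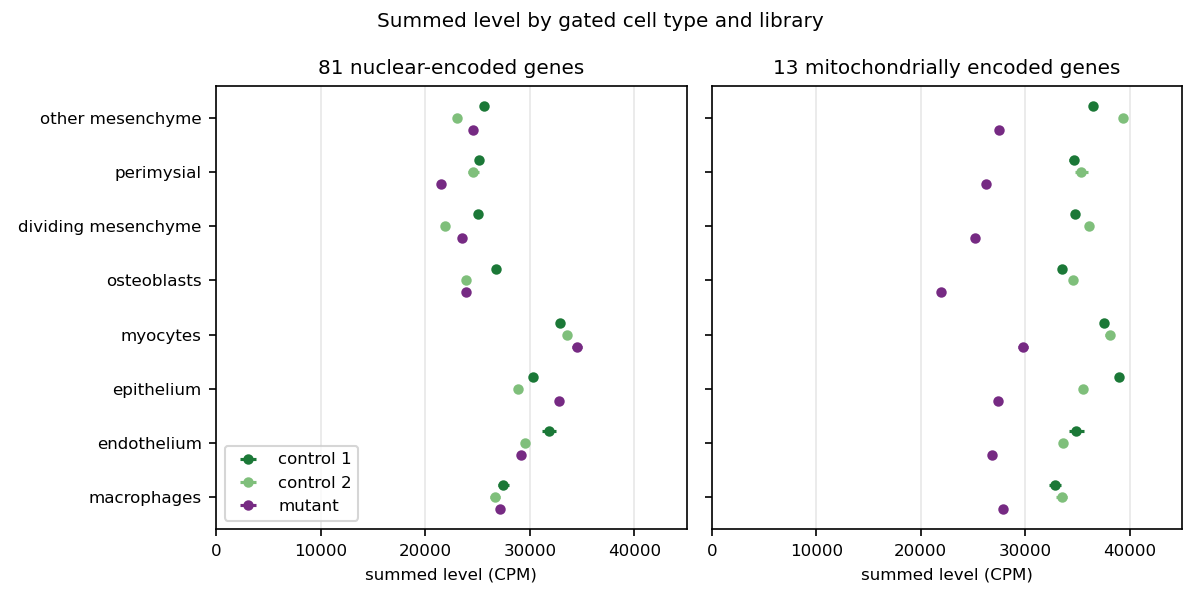
Summed level (CPM) of the 81 nuclear-encoded genes (left) and the 13 mitochondrially encoded protein genes (right) in the 8 gated types with at least 20 cells in every library, one point per library with a 95% exact Poisson interval that covers counting error only. Myocytes lie at 32845 to 34501 CPM on the left, above the other mesenchyme in every library, and on the right the mutant is lowest in each of the 8 types.

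Perimysial, dividing and osteoblast-gated mesenchyme stayed near the other mesenchyme, at 21513 to 25123, 21902 to 25024 and 23848 to 26764 CPM. The mitochondrially encoded genes did not follow the same order. Their sum in myocytes was 0.968 to 1.08 times that of the other mesenchyme of the same library, and in the endothelium 0.853 to 0.977 times.

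Types with fewer than 20 cells in a library were not tested, and their sums are given only as values. Myogenic progenitors (8, 21 and 34 cells) stood at 34432, 32464 and 36634 CPM, close to the myocytes. Neurons (13, 11 and 353 cells) stood at 35422, 25947 and 37004 CPM, with control 2 apart. Erythroid cells had 10149, 8505 and 14960 CPM, but with hemoglobin and mitochondrial UMIs left out of the total they had 35932, 31592 and 29397 CPM, against 26691, 24030 and 25326 CPM in the other mesenchyme.

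In myocytes, nearly every respiratory chain gene rose against the other mesenchyme. Of 80 members tested, 76 were called higher and 2 lower (edgeR quasi-likelihood test on summed UMIs with the library as a block, Benjamini-Hochberg adjusted p under 0.05), where 22.4% of 11553 genes tested were called higher and 24.9% lower. The median log2 fold change of the members was 0.85, beside -0.13 over all genes tested. All 4 genes of complex II, all 8 of complex III and all 17 of complex V rose, as did 33 of 35 of complex I and 14 of 16 of complex IV. These calls use TMM scaling. With total UMIs alone as the scale, which moves the median of all genes to -0.53, 54 members were higher and 3 lower with a median of 0.45. Of all 11553 genes, 1538 were called higher and 4978 lower on that scale. Ndufa1, a small complex I subunit, is an example: it was called higher at 0.35 on the log2 scale although its CPM was lower in myocytes of every library (144, 167 and 131 against 151, 171 and 134 CPM).

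**Figure D2:**
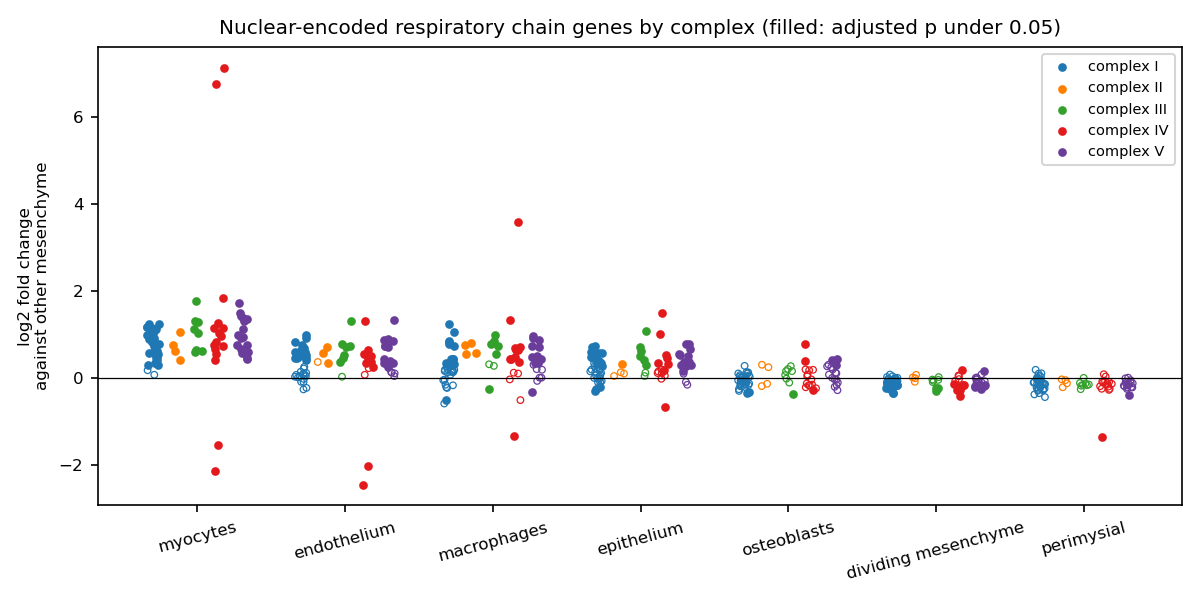
Log2 fold change of each tested member against the other mesenchyme (vertical axis) in 7 gated types, coloured by complex; filled points have an adjusted p under 0.05 and open points do not. The myocyte points lie above 0 but for Cox4i2 and Cox6b2, and the perimysial points hold 2 filled ones.

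Cox5a, a nuclear subunit of complex IV, was at 471, 478 and 416 CPM in myocytes and at 193, 143 and 170 CPM in the other mesenchyme, with no overlap. Its log2 fold change was 1.83 ± 0.127 (SE; 3.56-fold, edgeR adjusted p = 1.31e-11, n = 3 libraries). Uqcrfs1, the Rieske iron-sulfur protein of complex III, was at 243, 297 and 263 CPM against 100, 94.3 and 118 CPM, a log2 fold change of 1.76. Atp5b, the catalytic beta subunit of the ATP synthase, was at 585, 702 and 725 CPM against 283, 236 and 273 CPM, a log2 fold change of 1.73. In these 3 genes every myocyte value was above every mesenchymal value. The genes were named for their large rises, so this is no added support.

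The 4 succinate dehydrogenase genes rose less than Cox5a, Uqcrfs1 and Atp5b. Their median log2 fold change was 0.70, beside 0.85 over all members. Sdhd, a membrane anchor of complex II, was at 106, 103 and 82.1 CPM in myocytes against 65.8, 52.6 and 67.7 CPM (log2 fold change 1.07), while Sdhc, the other anchor, was at 63.6, 59.3 and 56.6 CPM against 64.4, 52.6 and 59.7 CPM, levels that overlapped, with a call of 0.42 under TMM scaling. The flavoprotein gene Sdha and the iron-sulfur gene Sdhb were called higher at 0.77 and 0.62. The members that were not called were Ndufa3 (log2 fold change 0.08) and Ndufa11 (0.18), both of complex I.

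The 2 members with the steepest rise were the muscle isoforms of complex IV, which were nearly absent from the other mesenchyme. Cox6a2 (chr7:128205435-128206387, minus strand, mm10 coordinates of the GENCODE annotation) had 160, 20 and 29 UMIs in myocytes against 11, 2 and 2 in the far more numerous other mesenchyme, or 127, 23.7 and 52.9 CPM against 1.74, 0.240 and 0.144 CPM. The ratio was 73.2 (95% exact counting interval 39.9 to 150), 99.1 (24.1 to 874) and 367 (92.8 to 3173) in the 3 libraries. The myocyte marker genes stood at 61.1, 13.9 and 5.48 CPM in the other mesenchyme of the same libraries. The part of free muscle RNA in the counts of the other mesenchyme was not tested. Cox8b (chr7:140898945-140900446, minus strand) had 38, 8 and 5 UMIs in myocytes and 3, 1 and 0 in the other mesenchyme, a ratio of 63.8 (20.2 to 323) in control 1 and 79.2 (10.6 to 3516) in control 2. Of its 68 UMIs in all cells, 51 lay in myocytes and 17 elsewhere, so it met the minimum of 50 UMIs through myocytes. Both genes also passed the low-count filter of the fit through myocytes alone, so their calls are no support and their fitted values are not given. Without them, 74 of 78 members were called higher and 2 lower, with a median log2 fold change of 0.83. The 2 lower include Cox4i2, whose call is no support either, as given below.

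Within its pair with Cox6a1, Cox6a2 took 23.5% of UMIs in myocytes of control 1 (95% Clopper-Pearson interval 20.4 to 26.9%, 160 of 681 UMIs), 5.75% in control 2 (3.55 to 8.74%, 20 of 348) and 9.06% in the mutant (6.15 to 12.8%, 29 of 320). Control 1 thus stood above the other libraries by more than the counting error, and the mutant lay between the controls. Myogenic progenitors had 0 Cox6a2 UMIs of 74, 83 and 153, which allows a share of up to 4.05%, 3.61% and 1.96%. The same share in endothelium, which should lack a muscle isoform, was 0 of 158, 381 and 1112 UMIs, and in the other mesenchyme 0.357%, 0.079% and 0.036%. Macrophages, which should lack it too, had 0.394%, 0.452% and 0.632% (1, 1 and 3 UMIs). Perimysial cells had 0.850% (3 of 353 UMIs) in control 1, 0 of 103 in control 2 and 0 of 227 in the mutant. Cox8b took 1.93%, 0.488% and 0.464% of its pair with Cox8a in myocytes, so Cox8a, itself called higher at 1.27, remained the bulk of the pair.

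**Figure D3:**
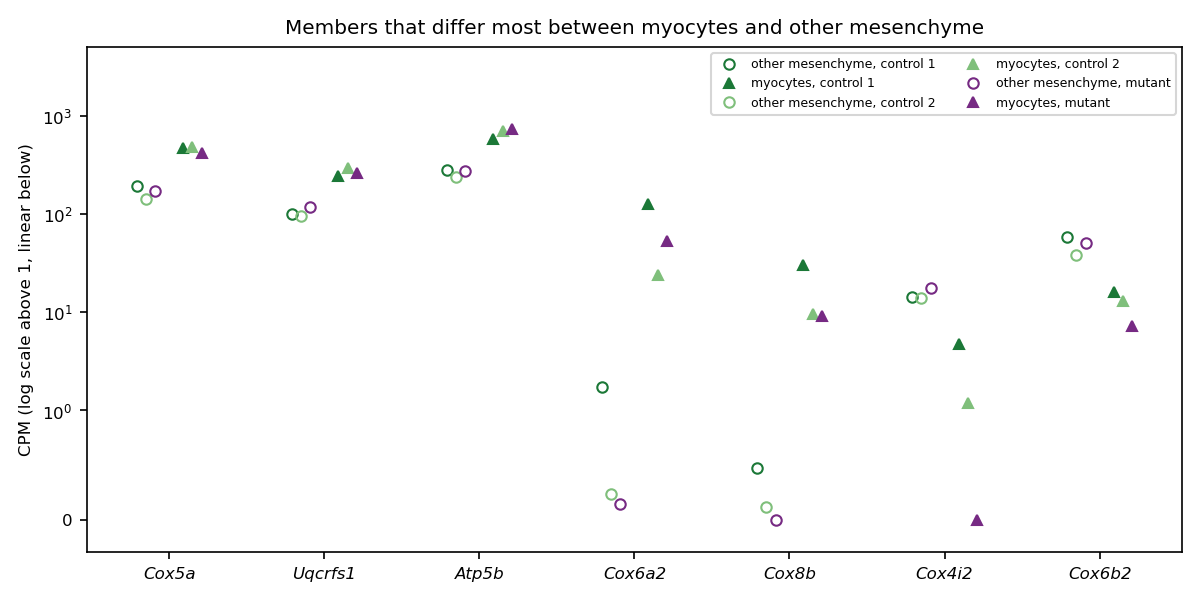
Level (CPM, log scale above 1 and linear below) of 7 members in the other mesenchyme (open circles) and in myocytes (filled triangles), coloured by library, one point per library. Cox6a2 rises from at most 1.74 CPM to at least 23.7 CPM, and Cox4i2 and Cox6b2 are lower in myocytes in every library.

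The third muscle isoform did not follow them: Cox7a1 had 2, 2 and 0 UMIs in myocytes of 985, 703 and 478 UMIs of its pair with Cox7a2. The 2 members that fell in myocytes were isoform genes as well. Cox6b2 was at 15.9, 13 and 7.30 CPM in myocytes against 57.7, 38.1 and 50.1 CPM in the other mesenchyme, a log2 fold change of -1.54 ± 0.246 (adjusted p = 1.43e-05). Cox4i2 had 6, 1 and 0 UMIs in myocytes against 91, 116 and 245, or 4.77, 1.19 and 0 CPM against 14.4, 13.9 and 17.7 CPM. It passed the low-count filter through the other mesenchyme alone, so its call is no support and its fitted value is not given. The partners of these 2 genes, Cox6b1 (0.76) and Cox4i1 (0.97), rose.

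Genes that work beside the chain were counted from lists, each to be read against the 22.4% of all genes called higher and 24.9% called lower. Of 17 genes of the tricarboxylic acid cycle and pyruvate dehydrogenase, 16 rose in myocytes and none fell, including Mdh2, the mitochondrial malate dehydrogenase (1.64), and Sucla2, a succinyl-CoA ligase subunit (1.40); Ogdh was not called. Of 6 tested genes of ATP transport and phosphate energy transfer, 6 rose, led by Ckb, brain creatine kinase (4.01), and Slc25a5, an ADP/ATP carrier (2.20). Of 45 assembly factors, 14 rose and 2 fell, with Cox17, a copper chaperone for complex IV, at 1.47 and Ttc19, a complex III factor, at -1.23. Of 13 regulators of mitochondrial biogenesis 3 rose, a share near that of all genes: the coactivator Ppargc1b (2.38), the nuclear receptor Esrra (1.28) and the mitochondrial transcription factor Tfam (0.57). With total UMIs alone, 1538 of all 11553 genes were called higher and 4978 lower. On that scale 11 tricarboxylic acid cycle genes were higher and 1 lower, 3 assembly factors higher and 9 lower, and 2 regulators higher and 1 lower. All 6 energy transfer genes stayed higher. Among 5 tested chain genes outside the chosen symbols, cytochrome c (Cycs, 1.37), cytochrome c1 (Cyc1, 1.5) and Ndufab1 (1.5) rose, while Ndufa4l2, a paralog of Ndufa4 (-2.59), and Atpif1, the ATP synthase inhibitor (-0.59), fell. Of the 13 mitochondrially encoded genes, 12 were called higher, from 0.24 for mt-Nd4 to 0.83 for mt-Nd6, all below the nuclear median of 0.85, and mt-Co3 was not called (0.22, adjusted p = 0.0515). These calls rest on TMM scaling: with total UMIs alone 1 was higher (mt-Atp6, 0.18), 1 lower (mt-Co3, -0.18) and the median was -0.028.

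The endothelium had fewer members called higher, by smaller steps. Of 78 members tested, 51 were called higher and 2 lower, where 23.9% and 24.5% of all 11941 genes tested were called, and the median log2 fold change was 0.42 beside -0.05 over all genes. Atp5b was at 593, 686 and 609 CPM against 283, 236 and 273 CPM, a log2 fold change of 1.33 ± 0.117 (adjusted p = 2.5e-10). Uqcrc1, a core protein of complex III, was at 232, 214 and 174 CPM against 99.5, 78.8 and 81 CPM (1.32). Cox5a was at 391, 423 and 364 CPM (1.31). The groups did not overlap in any of these 3 genes, which were named for their large rises, so this is no added support. The complex I genes Ndufa9 and Ndufa8 followed at 0.99 and 0.93, and the fold changes of complex III centred on 0.62, above the 0.39 to 0.47 of complexes II, IV and V and the 0.41 of complex I.

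Both members that fell in endothelium were again Cox4i2 and Cox6b2. Cox4i2 was at 3.68, 1.11 and 3.56 CPM (1, 1 and 7 UMIs), a ratio of 0.257, 0.080 and 0.201 to the other mesenchyme of the same library. It passed the low-count filter through the other mesenchyme, so its call, which stays in the count of 2 lower, is no support. Cox6b2 was at 14.7, 11.1 and 10.2 CPM, a log2 fold change of -2.03 ± 0.248. Without control 2, 25 members were called higher in place of 51, and without the library block 28, beside 1857 of 12084 and 2307 of 11941 genes.

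In macrophages, 41 of 79 members tested were called higher and 4 lower, beside 23.3% and 30.2% of 11716 genes, with a median log2 fold change of 0.33 beside -0.21 over all genes. With total UMIs alone as the scale the counts were 27 and 12 and the median 0.11, beside 2228 and 4537 of 11716 genes and a median of -0.44. Cox5a rose again, at 332, 385 and 362 CPM (1.33), followed by the complex I genes Ndufv3 at 306, 328 and 322 CPM against 174, 144 and 159 CPM (1.23) and Ndufb8 at 352, 347 and 341 CPM against 221, 157 and 211 CPM (1.06). Uqcrfs1 rose by 0.98. None of these 4 genes overlapped between the groups. They were named for their large rises, so this is no added support. All 4 Sdh genes were called higher, from 0.56 for Sdha to 0.80 for Sdhc.

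Cox7a1 had its highest levels of the tested types in macrophages, not in muscle. It had 7, 11 and 12 UMIs there, or 17.0, 20.9 and 14.2 CPM, against 3.0, 1.32 and 1.15 CPM in the other mesenchyme, a ratio of 5.66 (95% exact counting interval 2.01 to 14.1), 15.8 (6.22 to 40.3) and 12.3 (5.32 to 27.8). It passed the low-count filter through the macrophages. It was 2.62%, 3.18% and 2.30% of its pair with Cox7a2. The members that fell were Cox6b2 (36.4, 0 and 17.8 CPM against 57.7, 38.1 and 50.1 CPM), Ndufa5 of complex I (126, 138 and 149 CPM against 245, 224 and 226 CPM, -0.51), Atp5md (-0.31) and Uqcrh, the hinge protein of complex III (-0.25). Cox6b2 passed the low-count filter through the other mesenchyme. It varied widely among the macrophage sums, with control 2 at 0 of 361 UMIs of the pair with Cox6b1. Cox7a1 and Cox6b2 stay in the counts of 41 higher and 4 lower, but their calls are no support. With any 1 library left out, 1 to 2 members were called lower, beside 2712 to 2899 genes. Without the library block 1 member was, beside 3239 of 11716 genes.

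In the epithelium, 40 of 79 members tested were called higher and 4 lower, beside 22.9% and 25.5% of 12387 genes, and the median log2 fold change was 0.27 beside -0.04. With total UMIs alone 52 members were higher and 0 lower, beside 3292 and 2643 genes. Without the library block 13 members were higher and 0 lower, beside 1930 and 2037 genes. Complexes III and V held the larger shares, with 6 of 8 and 14 of 17 genes called higher, against 12 of 35 in complex I and 1 of 4 in complex II. Uqcrc1 was at 201, 200 and 175 CPM against 99.5, 78.8 and 81 CPM, a log2 fold change of 1.08 ± 0.0919 (adjusted p = 6.58e-05), and Cox5a was at 323, 335 and 423 CPM (1.02). The ATP synthase genes Atp5g3, a membrane ring subunit, and Atp5f1 followed at 0.79 and 0.78. Cox7a1 rose from 3.0, 1.32 and 1.15 CPM to 5.36, 4.14 and 5.72 CPM, at 16, 12 and 18 UMIs. It passed the low-count filter through the epithelium, so its call is no support. The members that fell were Cox4i2 (-0.66), Ndufb11 (-0.29), Ndufa3 (-0.26) and Ndufa2 (-0.20), the last 3 of complex I, and none of the 4 was called on total UMIs. With any 1 library left out, 0 to 1 were called lower, beside 2046 to 2863 genes.

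In myocytes, endothelium, macrophages and epithelium alike, 23 of the 78 members tested in all 4 were called higher (29.5%), beside 408 of 11060 genes (3.69%). The 4 comparisons share the same reference cells. The 23 members held 9 genes of complex V, among them Atp5b, Atp5c1, Atp5d and Atp5f1. They also held Cox4i1, Cox5a, Cox5b, Cox6b1 and Cox8a of complex IV, Uqcr11, Uqcrc1, Uqcrfs1 and Uqcrq of complex III and Ndufa9, Ndufb7, Ndufb8, Ndufb9 and Ndufs8 of complex I. Over all 81 members, a further 21 were higher in 3 of the 4 types, 19 in 2 and 15 in 1. A type in which a member was not tested counted there as not higher. The share of all genes at these counts was not worked out, so they are no result about the members. Cox4i2, Cox6b2 and Ndufa3 were higher in none. Cox5a was among the 5 steepest called members in each of the 4 types.

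The called members of the 3 mesenchymal comparisons changed by small steps but for Cox4i2. Osteoblast-gated cells had 5 of 79 members called higher and 4 lower, beside 9.92% and 7.17% of 12825 genes. Cox4i2 led, at 25.5, 23.1 and 31.2 CPM against 14.4, 13.9 and 17.7 CPM with no overlap, a log2 fold change of 0.78 ± 0.152 (adjusted p = 0.000586), and Atp5g1 (0.43), Atp5b (0.41), Cox5a (0.39) and Atp5g2 (0.30) followed. Uqcrb, Ndufa1, Ndufa3 and Cox7a2l were called lower. Osteoblast-gated cells varied in depth, and their summed level fell from the shallowest to the deepest of 4 equal bins of cells by UMIs, from 27616 to 25247 CPM in control 1, from 26245 to 22032 in control 2 and from 27479 to 22228 in the mutant. With the top 5% of cells by UMIs left out of each library, 23 members were called higher and 0 lower, beside 1287 and 954 of 12362 genes. Without control 2, the calls were 1 higher and 0 lower, beside 869 and 492 of 13361 genes. Without the mutant 15 members were higher, beside 1101 of 12289 genes. Without control 1, 8 members were lower, beside 875 of 13430 genes. Without the library block 0 members were called in either direction, beside 172 genes higher and 16 lower of 12825 tested.

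Dividing mesenchyme had 2 members called higher and 32 lower of 79, beside 1863 genes higher and 1515 lower (11.8%) of 12845 tested, or 26.3% in either direction, with fold changes from -0.40 to 0.18 on the log2 scale. Ndufv3 was at 135, 115 and 136 CPM against 174, 144 and 159 CPM (-0.35 ± 0.0532, adjusted p = 1.62e-06), and Cox7a2 was the steepest of the 2 that rose (0.18). Of the 13 mitochondrial genes, 11 were called lower there. Without the library block 0 members were called in either direction, beside 282 genes higher and 2 lower of 12845 tested. The lower calls of nearly all genes, not of the members alone, thus rest on the comparison within libraries. Without control 2, 9 members were called lower, beside 578 of 13208 genes. In perimysial cells 0 members were called higher and 2 lower, beside 1.78% and 1.43% of 11634 genes. Of the 79 members, 14 (17.7%) had an unadjusted edgeR p under 0.05, beside 12.9% of all genes, with a median log2 fold change of -0.13. Without the mutant 3 of 79 did, beside 1365 of 11924 genes, with a median of -0.03. Without control 1 it was 12 of 78 and without control 2 19 of 79, beside 1057 of 12206 and 1343 of 11632 genes. Both medians were -0.19. Cox4i2, at 3, 3 and 6 UMIs, and Atp5g2 (-0.39) both had an edgeR adjusted p of 0.0301. DESeq2 called 0 members in either direction, beside 81 genes higher and 22 lower of 11634. The fit without the library block also called 0 members, beside 1 gene higher and 0 lower. Without control 2, 1 member was called lower, beside 82 of 11632 genes. Without control 1 or the mutant 0 members were, beside 63 of 12206 and 146 of 11924 genes.

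The isoform shares of complex IV set the types apart more than the sums did. Cox4i2 was 1.36%, 1.72% and 1.72% of its pair with Cox4i1 in the other mesenchyme and 2.20%, 2.53% and 2.97% in osteoblast-gated cells. In the epithelium Cox4i2 was 0.551%, 0.572% and 1.08%, and in perimysial cells 0.368%, 1.15% and 0.872%. It reached 8.86% (7 of 79 UMIs), 14.3% (1 of 7) and 13.2% (15 of 114, 95% Clopper-Pearson interval 7.56 to 20.8%) in pericytes, the mural cells of small vessels, of which the libraries held 4, 3 and 24. The endothelium next to them had 0.238%, 0.102% and 0.256%. Cox6b2 was 7.99%, 5.82% and 7.17% of its pair in the other mesenchyme and 1.57%, 1.34% and 1.12% in the endothelium, with no overlap between libraries. In erythroid cells it was 32.9% (27 of 82 UMIs), 19.0% (8 of 42) and 14.6% (37 of 253), the highest shares of any type in control 1, control 2 and the mutant.

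**Figure D4:**
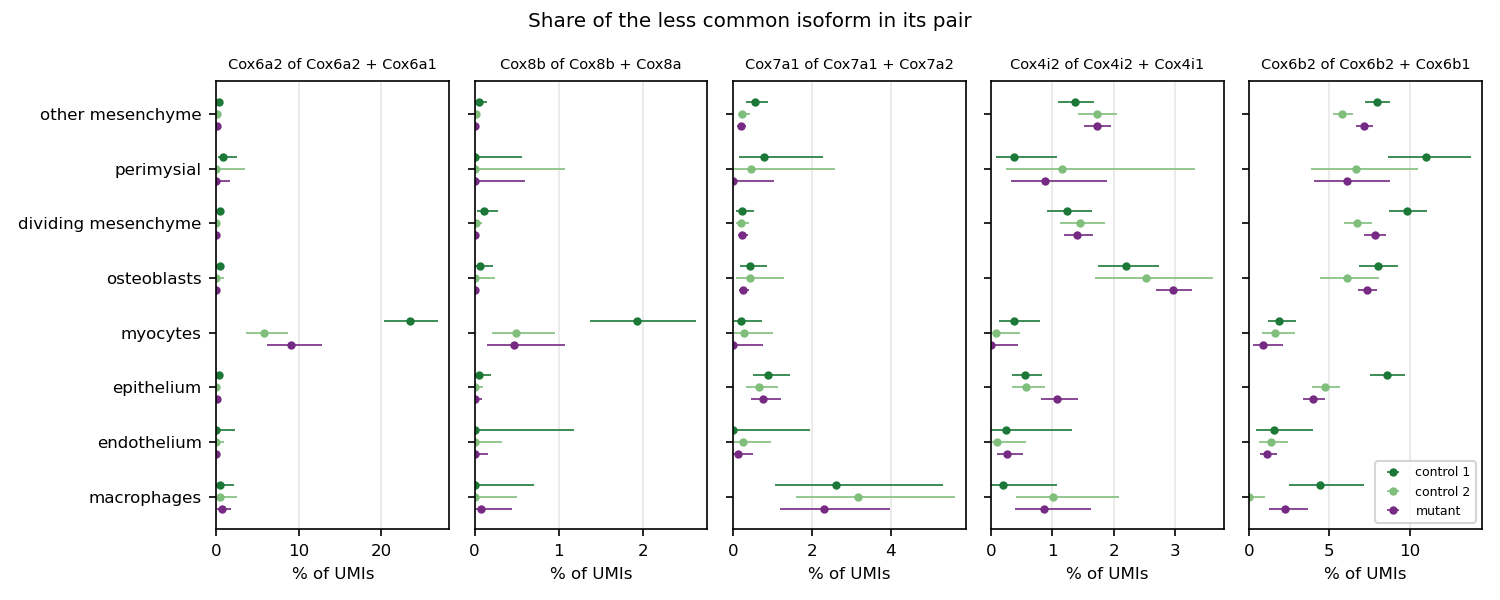
Share of UMIs (%) of 5 complex IV isoforms in the pair with their widely expressed partner, by gated type and library, with 95% Clopper-Pearson intervals that cover counting error only. Cox6a2 and Cox8b stand out in myocytes, Cox7a1 in macrophages and Cox4i2 in osteoblast-gated cells, and Cox6b2 is low in myocytes and endothelium.

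The 3 genes Atp5g1, Atp5g2 and Atp5g3 encode the same mature ring subunit of the ATP synthase, and their balance moved between types. Atp5g1 made up 45.0%, 48.6% and 47.3% of their UMIs in the other mesenchyme and 33.5%, 37.9% and 39.2% in myocytes, with no overlap. Its share was also lower in the endothelium (37.4%, 40.1% and 36.1%) and in macrophages (35.9%, 44.4% and 40.9%). In osteoblast-gated cells it was 44.7%, 53.4% and 50.4%. Atp5g2 made up 36.3%, 34.6% and 36.6% in the other mesenchyme and 42.5%, 43.4% and 42.8% in myocytes. In the endothelium it was likewise 40.6%, 40.6% and 45.7%. Atp5g3 made up 18.7%, 16.8% and 16.1% in the other mesenchyme and 22%, 22.9% and 20.9% in the epithelium, again with no overlap. The 3 genes rose in myocytes by 0.77, 1.38 and 1.36.

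The comparison of the mutant with the controls has 1 mutant library, so no test was made, and differences are set beside the gap between the controls. In the other mesenchyme the median log2 ratio of the 74 members at 50 CPM or more was 0.07, beside 0.00 over all 2823 genes at that level and a median of -0.27 between control 2 and control 1. There, 10 members were lower and 12 higher than both controls by more than the gap between them, beside 24.2% and 13.8% of all genes. Uqcrb, a complex III subunit, lay furthest below, at 345 and 245 CPM in the controls and 176 CPM in the mutant (log2 ratio -0.72). It was followed by Atp5mpl at 576 and 432 against 326 CPM (-0.61) and Ndufa3 at 446 and 366 against 289 CPM (-0.48), and then by Atp5k (-0.31) and Ndufa1 (-0.26). The members furthest above were Uqcrfs1 at 100 and 94.3 against 118 CPM (0.27), Uqcrh at 717 and 696 against 840 CPM (0.25), Ndufb3 (0.24), Ndufb4 (0.22) and Uqcrc2 (0.21).

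Some members lay outside both controls in nearly every type. Atp5e and Atp5md, small subunits of the ATP synthase, lay under both controls, past the distance between them, in all 8 types, by 0.08 to 0.34 and by 0.12 to 0.47 on the log2 scale. Atp5k, Atp5mpl and Uqcrb did so in 7 of 8, and Uqcrh was above in 7 of 8. Uqcrb, for example, was at 419 and 272 CPM in control myocytes and 204 CPM in mutant myocytes, and at 450 and 382 against 221 CPM in the endothelium. Ndufa6 was outside both controls in none. Such counts were near those of all genes: of the members at 50 CPM or more in all 8 types, 6.85% were lower in 7 or 8 types and 1.37% higher, beside 5.50% and 2.52% of 1510 genes. Since the 8 types of a library share 1 cell suspension and 1 sequencing library, genotype and library cannot be told apart here.

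Perimysial cells and epithelium departed from the controls in opposite directions. In perimysial cells 38 of 74 members were lower and 3 higher, beside 25.8% and 20.5% of all 3119 genes, with a median log2 ratio of -0.21. Ndufv2, a flavoprotein subunit of complex I, went from 109 and 85.1 CPM to 41.3 CPM (-1.22), Uqcrb from 355 and 258 to 142 CPM (-1.09) and Sdha from 65.4 and 67.5 to 34.4 CPM (-0.95). These 3 genes were chosen after their values were seen. The sums come from 89, 40 and 72 cells with 795179, 340590 and 726066 UMIs, so counting error is wide at such levels. The members are short transcripts, with a median of 870 bases against 2882 over all genes here. Over all 3071 genes with a length, the ratio of mutant to controls rose with length here (Spearman rho = 0.36). Across the 74 members the value was 0.05. The part of length in the difference was not tested. In the epithelium 43 of 75 members were higher and 11 lower, beside 18.1% and 25.6% of 2890 genes, with a median of 0.18. Atp5h went from 519 and 494 to 688 CPM (0.44) and Ndufb6 from 151 and 168 to 211 CPM (0.41), while Sdha (-0.49) and Uqcrb (-0.48) were lower. Mutant epithelial cells were shallower, with a median of 6800 UMIs against 12787 and 8789. In the deepest of 4 equal bins of epithelial cells by UMIs the members summed to 28748, 28871 and 30205 CPM, and in the shallowest bin to 32576, 29008 and 37302 CPM. The part of depth in the difference was not tested.

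In the other 5 types the counts were 11 lower and 8 higher of 73 members in dividing mesenchyme (24.6% and 13.5% of all genes), 19 and 2 of 73 in osteoblast-gated cells (25.1% and 14.4%), 18 and 27 of 76 in myocytes (27.7% and 22.4%), 18 and 8 of 75 in the endothelium (22.2% and 20.3%) and 17 and 17 of 73 in macrophages (26.0% and 17.4%). Their median log2 ratios ran from -0.07 in osteoblast-gated cells and endothelium to 0.09 in myocytes. The median in endothelium changed sign, to 0.04, with TMM scaling.

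The mitochondrially encoded genes moved far more than the nuclear ones. Their sum was lower in the mutant than in both controls in each of the 8 types, at 27472 against 36529 and 39346 CPM in the other mesenchyme, 29775 against 37568 and 38072 CPM in myocytes and 27898 against 32830 and 33470 CPM in macrophages. The log2 ratio ran from -0.25 in macrophages to -0.63 in osteoblast-gated cells, and the ratio of nuclear to mitochondrial UMIs was 0.896 in the other mesenchyme of the mutant against 0.701 and 0.586 in the controls. The 13 genes did not move as one. In the other mesenchyme mt-Nd3 of complex I was at 643 and 435 CPM in the controls and 152 CPM in the mutant (-1.80), mt-Nd2 changed by -1.05 and mt-Co2 by -0.98, whereas mt-Co1 was at 4034, 4976 and 4477 CPM (0.00) and mt-Co3 changed by -0.13. In every one of the 8 types mt-Nd3 was below both controls, by 1.29 to 2.0 on the log2 scale.

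**Figure D5:**
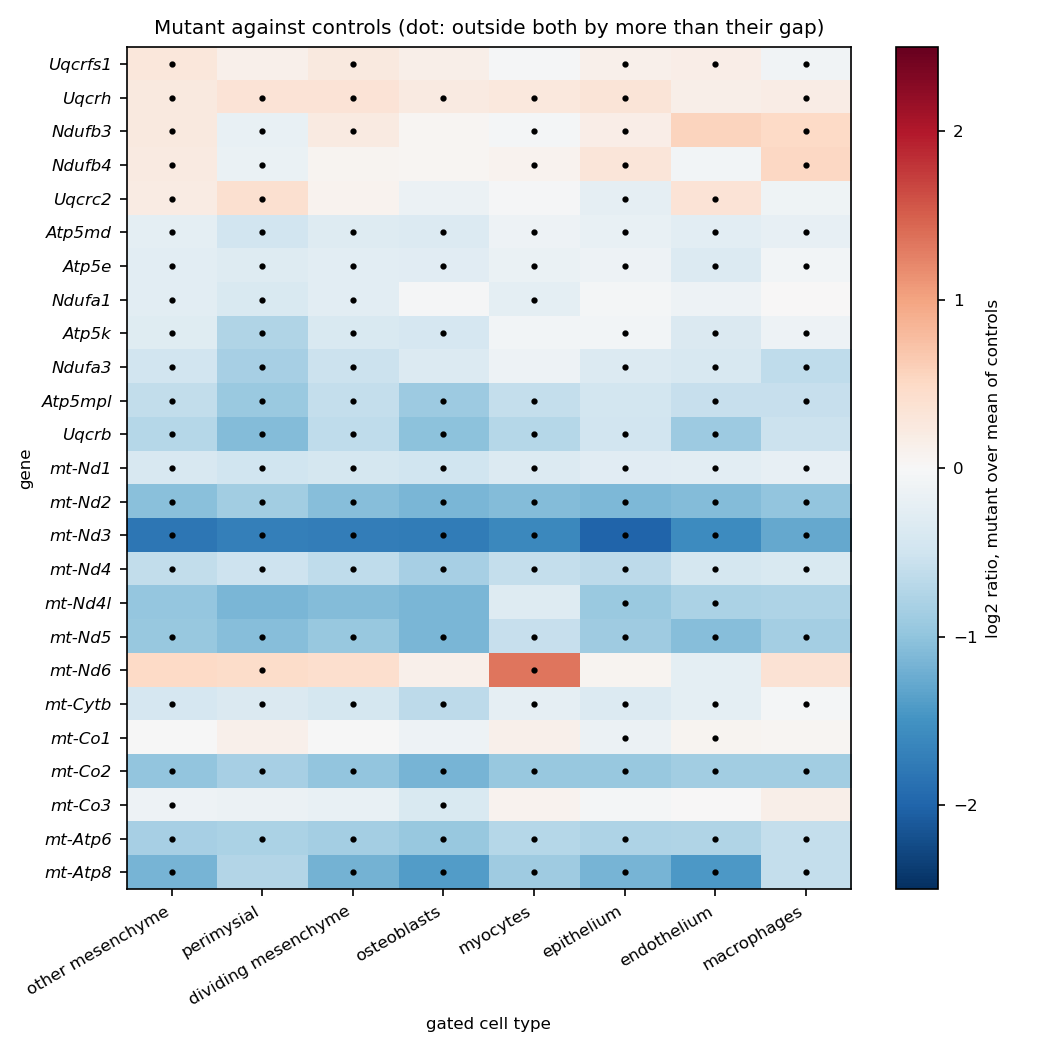
Log2 ratio of the mutant to the mean of the controls (colour) for 12 nuclear members and the 13 mitochondrial protein genes (rows) in 8 gated types (columns); a dot marks a mutant value outside both controls by more than their gap. Uqcrb, Atp5mpl and Ndufa3 run blue and Uqcrh red across mesenchymal and other types, and mt-Nd3 is the darkest row.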

How the data were processed

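The authors deposited raw UMI counts as 1 matrix of genes by cells per library: 10x single-cell 3′ v2 libraries, sequenced on a NovaSeq, counted with Cell Ranger 4.0.0 by the matrix header and the study's methods (3.1.0 in the submitters' processing notes), build mm10; the annotation release is not given in the sources used here. Cell Ranger counts reads that map to a single gene, so members with near-identical processed pseudogenes may be undercounted. A 3′ tag is counted once per molecule, so UMIs do not scale with transcript length. The authors' merging of the controls and Seurat integration were not part of the deposited counts.

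Cells were kept from 500 genes up and to a limit of 10% mitochondrial UMIs, and were assigned to a class when at least 3 of its markers were detected and exceeded those of every other class by 2 or more; erythroid cells had at least 20% hemoglobin UMIs. Cells matching a pair of classes were left out by that margin, and no doublet caller was run. Myogenic cells with at least 2 myocyte markers were myocytes, the others progenitors. Mesenchymal cells with at least 2 osteoblast markers were osteoblast-gated. Of the others, those with at least 4 division markers were dividing mesenchyme. Of the rest, those with UMIs of both Hic1 and Ebf2 were perimysial. The osteoblast gate came first, so it can hold dividing cells. UMIs were summed per type and library. Comparisons between types used edgeR 4.0.16 in R 4.3.3 (TMM, filterByExpr, quasi-likelihood test, library as a block because both sums come from 1 cell suspension, Benjamini-Hochberg over all genes tested) where every library had at least 20 cells: 7 comparisons were tested and 7 were not. The SE is the fold change over the root of the F statistic. On simulated counts of the myocyte comparison (11553 genes), 106 of 200 genes changed by 1 on the log2 scale were recovered and 3 unchanged genes were called. The simulation changed as many genes up as down and held no library effect, whereas the real fit called 2585 genes higher and 2876 lower. Its figures therefore do not carry over to that fit. The mutant, with 1 library, was compared without a test. A 0 count was given the upper limit of 3 counts, and all intervals (95%) cover counting error only.

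Named members were the isoform pairs, the Sdh genes, the 5 largest rises and 5 largest falls among those that passed with the same sign in every library, and, for the genotype, the 5 furthest on either side in the other mesenchyme; others were chosen after their values were seen. The members and gene lists were chosen with earlier results of these data known. Lists were mitochondrial protein genes, chain genes outside the symbols, assembly, tricarboxylic acid cycle, biogenesis and energy transfer. Alternatives changed the scaling, filter, block, tool (DESeq2 1.42.0), gate, cell filters and libraries. Promoter words were searched on both strands, and the NRF1 and MEF2 words were shortened by 1 base after longer forms had been counted.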

Additional observations from a re-analysis of the deposited data

Results flagged for a closer look

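Some respiratory chain results in which the mutant library moved to the other side of 0 from both controls are listed here. Each is given as the log2 ratio of the type to the other mesenchyme within a library. The list is not complete. For example, summed complex I stood at a ratio of 1.003 and 1.119 in control perimysial cells and 0.866 in mutant ones. None of these differences was tested, since there is 1 mutant library.

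In osteoblast-gated cells the summed members stood at -0.045 in the mutant against 0.06 and 0.05 in the controls. The mitochondrial protein genes in macrophages stood at 0.022 in the mutant against -0.15 and -0.23. Ndufb3, a complex I subunit, stood at -0.038 in mutant myocytes against 0.34 and 0.17, and Ndufa2, another, at 0.025 against -0.09 and -0.23. Atp5g1 in the endothelium stood at -0.0086 in the mutant against 0.42 and 0.41. Ndufa8 in macrophages stood at -0.032 in the mutant against 0.18 and 0.55.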

How the results depend on the processing

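Of the counts and medians recomputed under the alternatives, 303 stayed close to the reported value and 91 moved. A count within a ratio of 1.5 of the reported one was taken as close, so some shifts are not listed below. In macrophages 41 members higher became 30 with DESeq2 and 34 with no filter, beside 2169 of 11716 and 2721 of 20387 genes. In the endothelium 51 became 41 with no filter, beside 2598 of 20431 genes. In the epithelium 40 became 53 with the top 5% of cells by UMIs left out, beside 2747 of 12339 genes. Where no cause is named, the cause was not tested. Without the library block, members called higher and lower were 0 and 0 in dividing mesenchyme, osteoblast-gated and perimysial cells. They were 13 and 0 in the epithelium, 28 higher in the endothelium and 1 lower in macrophages. In myocytes 66 stayed higher and 2 lower, and pairing comes from cells of the same suspension. Over all genes, that fit called 282 and 2 in dividing mesenchyme, 172 and 16 in osteoblast-gated cells and 1 and 0 in perimysial cells. It called 1930 and 2037 in the epithelium, 2307 and 2405 in the endothelium, 2454 and 3239 in macrophages and 2175 and 2447 in myocytes. With total UMIs alone, 4 members were higher in dividing mesenchyme and 11 in osteoblast-gated cells, beside 2473 of 12845 and 1249 of 12825 genes. In the epithelium and in perimysial cells 0 were lower, beside 2643 of 12387 and 62 of 11634 genes. In macrophages 27 were higher and 12 lower, beside 2228 and 4537 of 11716 genes. DESeq2 called 1 higher and 21 lower in dividing mesenchyme, beside 666 and 496 of 12845 genes. It called 0 lower in osteoblast-gated cells, perimysial cells and epithelium, beside 333, 22 and 1887 genes. It called 31 higher in the endothelium and 1 lower in macrophages, beside 1896 and 2317 genes. With all types in 1 fit, which pools the spread of all, dividing mesenchyme had 0 higher and 1 lower, beside 623 and 228 of 12707 genes. Osteoblast-gated cells had 3 higher there, beside 1082 genes. The epithelium had 2 lower, the endothelium 4 lower and perimysial cells 0 lower, beside 3069, 3260 and 38 genes. With no filter on low counts, 4 were lower in the endothelium, beside 3628 of 20431 genes. With the top 5% of cells by UMIs left out, osteoblast-gated cells had 23 higher and 0 lower, beside 1287 and 954 of 12362 genes. The epithelium then had 2 lower and perimysial cells 0 lower, beside 3067 of 12339 and 86 of 11660 genes. With the gate at 4 markers, 0 were lower in perimysial cells, beside 57 of 11594 genes. A gate without Osr2 and Runx2, chosen after seeing the data, gave 1 lower in perimysial cells, beside 152 of 11537 genes. It left the myocyte counts at 76 and 2, beside 2669 and 2935 of 11471 genes.

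Leaving out a library at a time gave these ranges. In myocytes 69 to 74 were higher, beside 2240 to 2326 of all genes. Higher and lower calls were 0 to 2 and 9 to 37 in dividing mesenchyme, beside 957 to 1615 and 578 to 1580 genes. In osteoblast-gated cells they were 1 to 15 and 0 to 8, beside 869 to 1225 and 492 to 875 genes. The epithelium had 27 to 47 and 0 to 1, beside 2134 to 2915 and 2046 to 2863 genes. For the endothelium the calls were 25 to 50 and 2, beside 1857 to 2955 and 2125 to 2965 genes. Macrophages had 36 to 40 and 1 to 2, beside 2266 to 2612 and 2712 to 2899 genes. Perimysial cells had 0 and 0 to 1, beside 89 to 185 and 63 to 146 genes. For the mutant against 1 control at a time, the median log2 ratio was 0.12 to 0.24 in the epithelium, -0.063 to 0.074 in macrophages, 0.053 to 0.069 in myocytes, -0.24 to -0.22 in perimysial cells, -0.20 to 0.04 in osteoblast-gated cells -0.05 to 0.19 in the other mesenchyme, -0.08 to 0.17 in dividing mesenchyme and -0.08 to -0.01 in the endothelium.

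For the mutant against the controls, TMM factors gave medians of -0.15 in perimysial cells, 0.14 in myocytes, 0.31 in the epithelium, 0.035 in the endothelium and 0.12 in macrophages. With them, 6 members were lower in the other mesenchyme, 5 lower and 13 higher in dividing mesenchyme, 10 lower and 5 higher in osteoblast-gated cells, 10 lower in myocytes, 2 lower in the epithelium, 11 lower and 16 higher in the endothelium, and 7 lower and 26 higher in macrophages. The mean over cells in place of the sum gave medians of -0.14 in perimysial cells, 0.13 in myocytes, 0.24 in the epithelium and 0.0498 in the endothelium, with 6 higher in perimysial cells, 7 lower and 13 higher in dividing mesenchyme, 4 higher in osteoblast-gated cells and 9 lower in myocytes. With the top 5% by UMIs left out, 13 were higher in dividing mesenchyme and 7 in osteoblast-gated cells, and the myocyte median was 0.099. The gate without Osr2 and Runx2 gave 4 higher in osteoblast-gated cells. The myocyte median was 0.071 without hemoglobin and mitochondrial UMIs, 0.089 with 200 genes and no mitochondrial limit, 0.076 with 2 markers and 0.077 with 4. The shares of all genes under these alternatives are not given here, so the member counts in this paragraph are no result about the members.

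Depth limits the isoform shares: low counts of Cox6a2, Cox7a1 and Cox8b leave wide intervals, and types with few cells were not tested. With 1 mutant library, genotype and library cannot be told apart.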

Other observations

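Ndufa4l2, the paralog of Ndufa4 that the symbol rule leaves out, differed between types in both directions. It was called higher in the epithelium (log2 fold change 2.57 ± 0.313, edgeR adjusted p = 0.000366) and in osteoblast-gated cells (2.21 ± 0.143, adjusted p = 7.84e-12), and lower in the endothelium (-2.51) and in macrophages (-3.37) as well as in myocytes. Among the energy transfer genes, Ckmt1, a mitochondrial creatine kinase, was called higher in the epithelium. There 7 of these genes were tested, against 6 in each other comparison. Whether Ckmt1 passed the low-count filter through the epithelium alone was not checked. Its call is therefore no support, and its fitted value is not given. Ckb was higher in macrophages (4.24) by about as much as in myocytes (4.01), and the difference was not tested. Among the biogenesis genes, 6 of 13 were called higher in the epithelium (22.9% of all genes), among them the coactivator Ppargc1a (1.65) and Esrra (1.32), and 4 of 11 in the endothelium (23.9% of all genes), among them Gabpb1, a subunit of an ETS factor (1.37). Of 45 assembly factors in the epithelium, 5 were higher and 11 lower, beside 22.9% and 25.5% of all genes. Of 44 in macrophages, 7 were higher and 4 lower, beside 23.3% and 30.2%, and Coa4 (1.95) and Cox17 (1.54) were higher and Cox11 (-2.20) and Lyrm7 (-3.12) lower.

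Transcript length, taken as the longest protein-coding transcript of the GENCODE annotation, had little relation to the ratio of mutant to controls across the 74 members in the other mesenchyme (Pearson r = 0.13, Spearman rho = 0.07). These values run across genes of the same 3 libraries, which are not independent replicates.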
